A study of Homo sapiens with 12 samples.

Results

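The genes of the proteasome were described in synchronized HCT116 cells, a human colorectal carcinoma cell line. Members were the genes whose symbol starts with PSMA, PSMB, PSMC, PSMD, PSME, PSMF or PSMG. Each was represented by 1 probe set annotated to 1 gene, the one with the highest mean, which had to reach a log2 value of 5 on at least 2 arrays. Of 50 such symbols, 42 were kept, among 9130 genes kept in all. Of the 42, 39 code for subunits, activators, an inhibitor or assembly factors of the proteasome. PSMC3IP, a recombination factor, PSME3IP1, a nuclear protein that binds PSME3, and PSMA3-AS1, a long noncoding RNA, were taken by their symbols alone and are described apart. Before sampling, all cells were held before S phase with 2 mM thymidine for 19 h, a release of 9 h and thymidine again for 16 h. They were then released into medium with DMSO, the vehicle, or with 0.1 mg/ml nocodazole, which takes apart microtubules and keeps dividing cells from finishing mitosis. The 8 DMSO arrays were taken every 2 h from 0 to 6 h and then every hour to 10 h. The 4 nocodazole arrays were taken every hour from 7 to 10 h. Each condition was 1 Affymetrix U133 Plus 2.0 array without a replicate, from 1 cell line, so the spread behind each p is that of neighbouring times, and separate cultures were not compared. The DMSO arrays at 7 to 10 h serve both as part of the DMSO course and as the controls of nocodazole.

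The proteasome degrades proteins that carry ubiquitin chains. Its core particle is a barrel of alpha rings, which gate the entrance, around beta rings, which hold the proteolytic sites. A regulatory particle binds each end, with a base of ATPases that unfold substrates and a lid that removes ubiquitin. Other caps, the PA28 complexes and PA200, can take its place, and PSMF1 inhibits the core. Dedicated chaperones assemble core and base. In the cell cycle the proteasome destroys cyclins and securin, so that cells leave mitosis, and drugs such as nocodazole hold that step back through the spindle checkpoint.

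Proteasome genes are known targets of NFE2L1 and NFE2L2, factors that bind the antioxidant response element. Its core, TGACNNNGC, was searched on both strands in promoters of 300 bases, from 250 before to 50 after the start of each gene, in the RefSeq table of build GRCh38.p14. An entry was found for 36 of the 42 members, and PSMA7, PSMB1, PSMB6, PSMB7, PSMD4 and PSMG3 had none. The element was in 12 of the 36 (33.3%) and in 13.6% of all 27305 promoters. The searches were separate, so matches of different motifs may overlap. The CCAAT box was in 18 of 36 (50%) against 35.7% of all, and TTTGAA, the core of the cell cycle homology region, in 4 of 36 (11.1%) against 15.4%. These shares are descriptions without a test. PSMC2, PSMC6, PSMD8 and PSMF1, which the results below also name, had an entry without the element. Windows of 49 bases are shown for 4 members named below, chosen among those that hold the element, which is in capitals.
PSMB3: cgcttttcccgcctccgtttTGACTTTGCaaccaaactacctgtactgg
PSMD3: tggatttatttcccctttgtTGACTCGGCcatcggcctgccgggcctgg
PSME1: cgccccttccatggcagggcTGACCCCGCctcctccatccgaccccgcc
PSME4: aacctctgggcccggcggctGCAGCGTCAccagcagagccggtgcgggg
Each reads 5′ to 3′ on the strand of the gene. The window of PSMB3, a beta ring gene, lies at chr17:38752617-38752665, plus strand, at positions -124 to -76 from the start. That of PSMD3, a lid gene, lies at chr17:39980750-39980798, plus strand, at positions -57 to -9 from the start. The window of PSME1, a PA28 gene, lies at chr14:24136088-24136136, plus strand, at positions -106 to -58 from the start. That of PSME4, the gene of PA200, lies at chr2:53970999-53971047, minus strand, at positions -54 to -6 from the start, and there the element stands on the opposite strand. Of the 13 members that were lower with nocodazole at 9 and 10 h after quantile normalization, 11 had a promoter entry and 3 of these held the element.

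The signals were given as log2 values, as deposited and after quantile normalization, which gives every array the same distribution. As deposited, the median over all kept genes was 9.12 to 9.56 with DMSO and 9.32, 9.41, 8.88 and 8.76 at 7, 8, 9 and 10 h with nocodazole. The DMSO array at 10 h, a control of nocodazole, had the highest median of all arrays, over all genes (9.56) and over members (12.61). The nocodazole arrays at 9 and 10 h stood below the others for most genes. Genes under the level filter went the other way there, since without the filter 82.4% of 10645 such genes were called higher at 9 and 10 h. Its part in the results below was not tested, and the main results are given on both scales. Of the 8 epithelial markers listed, EPCAM, CDH1, KRT8, KRT18 and KRT19 lay between 10.39 and 14.83, and CDX2, CDH17 and VIL1 were under the filter. No listed leukocyte or endothelial marker passed it, and of 3 fibroblast markers COL1A1 passed, at 7.75 to 8.60. CCNE2, a cyclin of S phase entry, had log2 values of 12.18 at 0 h and 8.78 at 7 h with DMSO. At 9 and 10 h it read 10.31 and 10.83 with DMSO and 3.26 and 3.83 with nocodazole. The treatments thus differed in this cycle marker at these hours, and its part in the differences below was not tested. CCNB1, the mitotic cyclin, was at 12.01 at 0 h and between 13.54 and 13.91 from 6 h on in both series. In such bulk samples, fewer cells in a state and less RNA per cell cannot be told apart.

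Nearly all proteasome genes gave a high signal on all 12 arrays. In the alpha ring, the log2 values as deposited were 13.66 to 14.05 for PSMA1, 13.66 to 14.08 for PSMA2, 13.19 to 13.57 for PSMA3, 13.45 to 14.00 for PSMA4, 11.39 to 12.22 for PSMA5 and 12.96 to 13.53 for PSMA7. In the beta ring, the catalytic subunits PSMB5, PSMB6 and PSMB7 lay at 13.06 to 13.50, 13.18 to 13.69 and 12.59 to 13.13, and the noncatalytic PSMB1, PSMB2, PSMB3 and PSMB4 at 13.79 to 14.15, 12.76 to 13.22, 12.78 to 13.42 and 13.17 to 13.81. In the probe sets used, no member of these rings left a range of 1 log2 unit over all conditions. Dimmer kept sets could differ more. One of PSMB4 had means of 8.21 at 0 to 4 h and 5.26 at 6 to 8 h with DMSO as deposited. One of PSMA2 was lower by 1.40 with nocodazole than with DMSO at 9 and 10 h. PSMB10, a subunit of the immunoproteasome, was measured at 7.19 to 8.35, and its partners PSMB8 and PSMB9 did not pass the filter, with highest values of 1.74 and 1.98. PSMA8, the alpha subunit of the testis, did not pass either, with a highest value of 4.13. The remaining 5 symbols under the filter were antisense or divergent transcripts, PSMB8-AS1, PSMD6-AS2, PSMD7-DT, PSMD14-DT and PSMG3-AS1. PSMA6 and PSME2 had only probe sets annotated to several genes, and they, PSMB11, PSMC5, PSMD7 and PSMD13 were not analysed here.

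In the base, the ATPases were measured at 12.60 to 13.15 for PSMC1, 12.34 to 13.13 for PSMC2, 11.54 to 12.58 for PSMC3, 12.25 to 12.61 for PSMC4 and 11.37 to 12.21 for PSMC6. The scaffold subunits PSMD1 and PSMD2 lay at 11.65 to 12.26 and 12.28 to 12.86, and the ubiquitin receptor PSMD4 at 12.12 to 12.71. In the lid, PSMD14, the deubiquitinase, lay at 12.78 to 13.33, and the structural subunits PSMD3, PSMD6, PSMD8, PSMD11 and PSMD12 at 11.75 to 12.55, 11.93 to 12.61, 12.52 to 13.33, 11.98 to 12.73 and 13.02 to 13.42. Among the caps, PSME1 and PSME3, subunits of PA28 complexes, lay at 10.81 to 11.71 and 11.83 to 12.52, and PSME4 at 9.48 to 10.72. The inhibitor PSMF1 lay at 10.99 to 11.97. The chaperones of the base, PSMD5, PSMD9 and PSMD10, lay at 11.04 to 11.77, 10.79 to 11.56 and 10.79 to 11.65, and those of the core, PSMG1, PSMG2, PSMG3 and PSMG4, at 11.95 to 12.51, 11.97 to 12.71, 10.46 to 11.29 and 10.44 to 11.19. Of the genes outside the proteasome, PSMC3IP ranged over 9.32 to 10.73, PSME3IP1 over 9.90 to 11.03 and PSMA3-AS1 over 7.78 to 8.63. The signal of one probe set does not give an amount relative to another, so these levels were not ranked.

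**Figure D1:**
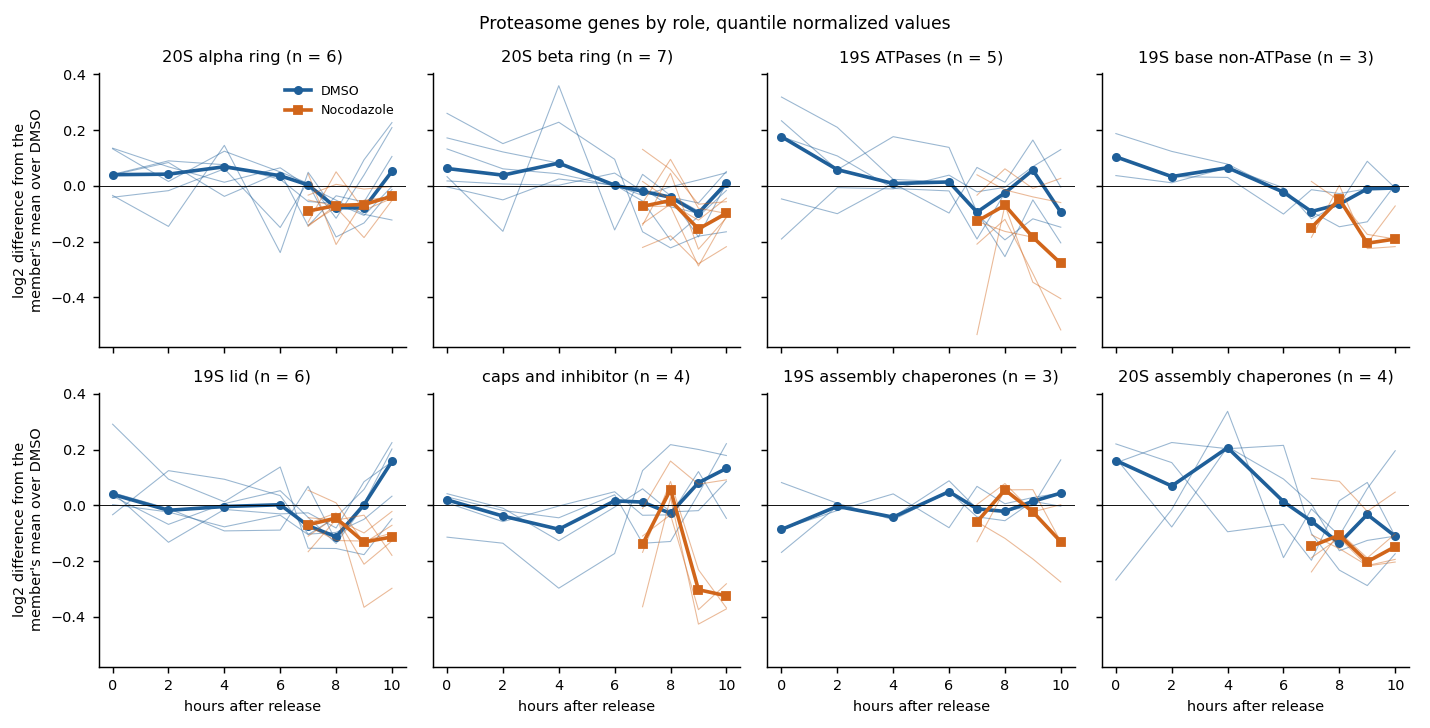
Log2 signal of proteasome genes after quantile normalization, as the difference from each gene's mean over the 8 DMSO arrays, against hours after release, in 8 panels by role. Thin lines are genes and thick lines with points are medians, for DMSO (blue) and nocodazole (orange), and the median of caps and inhibitor with nocodazole lies lowest at 9 and 10 h.

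The spread of the members over the DMSO arrays was small. Their median SD was 0.16 on the log2 scale as deposited, against 0.26 over all kept genes, and 0.11 against 0.25 after quantile normalization. After normalization 41 of 42 members lay under the median of all genes, and PSMC3IP lay above it. The smallest SD was that of the catalytic PSMB5, whose 8 DMSO values after normalization were 13.26, 13.21, 13.29, 13.27, 13.23, 13.26, 13.29 and 13.31. PSMB5 therefore stayed between 13.21 and 13.31 over the DMSO course. The spread of a gene fell with its signal on these arrays, so members were also set beside genes of like signal. Of the 12 members with a mean of 13 or more, the median SD was 0.15 as deposited against 0.13 over the 510 genes of that band. After normalization these were 0.090 and 0.096. In that band 2 of the 12 members lay under the median of all its genes as deposited and 7 after normalization. Between 12 and 13, 15 members had a median SD of 0.16 as deposited against 0.18 over 518 genes, and of 0.10 against 0.14 after normalization. Between 11 and 12, 8 members had 0.14 against 0.21 over 953 genes as deposited, and 0.081 against 0.18 after normalization.

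**Figure D2:**
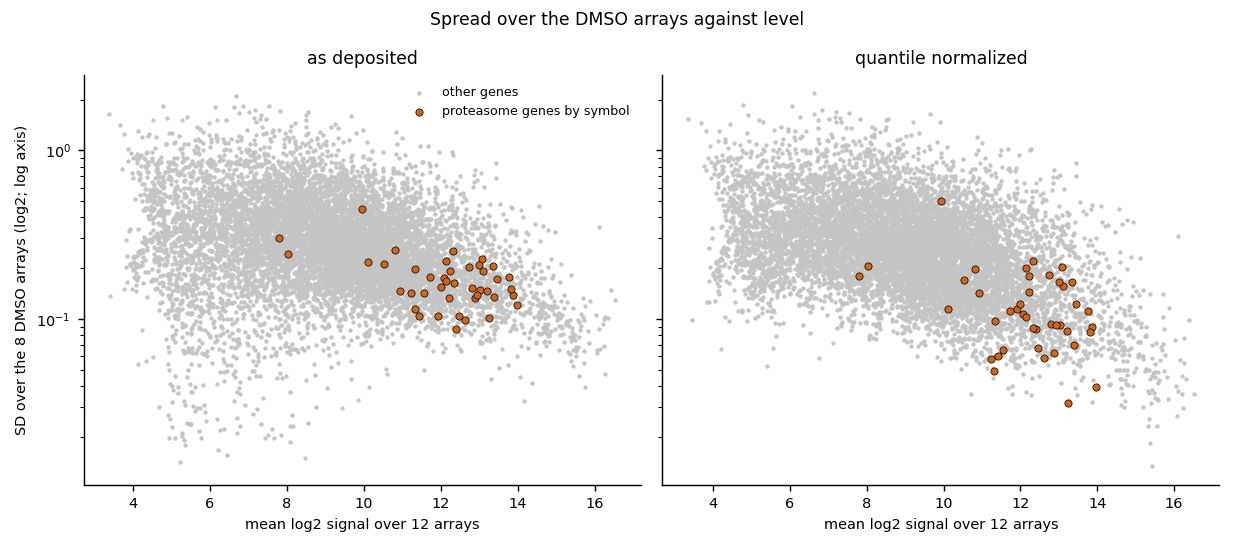
SD of each kept gene over the 8 DMSO arrays (log axis) against its mean log2 signal over 12 arrays, as deposited (left) and after quantile normalization (right), with proteasome genes by symbol in orange. The SD falls with signal, and the 42 members lie mostly at high signal and low SD.

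The first comparison asked whether proteasome genes changed over the DMSO course, through S phase and mitosis. Few did, and the sizes were small. As deposited, 0 of 42 members passed the limma test of a smooth course at an adjusted p of 0.05, with 6 at an unadjusted p under 0.05, where 21.8% of all genes passed. After quantile normalization 8 of 42 (19.0%) passed, where 40.1% of all genes did. The share of members called was thus below the background on both scales. As deposited the count moved with single hours, from 0 without the 8 h array to 7 without the 10 h array. After normalization it went from 3 without the 9 h array to 13 without the 6 h array. The share of all genes called is not given for these fits. The 8 were the ATPase PSMC2, the beta subunits PSMB3 and PSMB6, the alpha subunit PSMA1, the scaffold PSMD1, the chaperone PSMG2, the cap PSME3 and PSMC3IP. The fitted curves spanned 0.04 to 1.10 over the members, with a median of 0.27, against a median of 0.56 over all genes.

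Of the 7 proteasome genes among them, 6 were lower at 10 h than at 0 h and PSME3 was higher. After normalization PSMC2, an ATPase of the base, had log2 values of 13.12, 13.01, 12.83, 12.82, 12.70, 12.61, 12.69 and 12.66 with DMSO and 12.68, 12.64, 12.62 and 12.53 with nocodazole, in order of time. It was at its highest at 0 h and between 12.61 and 12.70 from 7 h on, and its adjusted p was 0.0035 (0.0792 as deposited). PSMB3, a noncatalytic beta subunit whose promoter window is shown above, read 13.42, 13.31, 13.38, 13.25, 12.99, 12.93, 12.98 and 12.99 with DMSO and 12.94, 12.98, 12.88 and 12.94 with nocodazole, with an adjusted p of 0.00412 (0.0587 as deposited). Its 4 DMSO arrays to 6 h lay at 13.25 or more and the later ones at 12.99 or less. This cut is none of the windows compared and was read from the same values as the test, so it adds no support. How many of all genes part at this cut was not counted. PSMG2, which pairs with PSMG1 to assemble the alpha ring, read 12.53, 12.60, 12.58, 12.59, 12.27, 12.14, 12.09 and 12.20 with DMSO, with an adjusted p of 0.0074 (0.127 as deposited). By the same cut it lay at 12.53 or more to 6 h and at 12.27 or less from 7 h on. Like them, PSMB6, a catalytic subunit, went from 13.67 at 0 h to 13.30 at 8 h and 13.48 at 10 h, PSMD1 from 12.20 to 11.87 and 12.02, and PSMA1 from 13.997 to 13.81 and 13.74, with adjusted p of 0.0202, 0.03 and 0.0412.

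PSME3, the subunit of the nuclear PA28 complex, went the other way. Its values after normalization were 12.003, 11.98, 11.82, 11.94, 12.24, 12.34, 12.32 and 12.30 with DMSO and 12.11, 12.28, 12.19 and 12.21 with nocodazole, with an adjusted p of 0.00812 (0.0599 as deposited). By the cut read from the values above, all DMSO arrays to 6 h lay at 12.003 or less and all later ones at 12.24 or more. The used probe sets of PSME3, PSMA1 and PSMA7 are of a design class that may cross-hybridize. The other 3 kept probe sets of PSME3, chosen for display after their values were seen, are given too, of which the first is of the same class and the others are not. As deposited, they read 10.59, 10.33, 10.64, 10.98, 11.56, 11.47, 11.47 and 11.92 in the first, 7.40, 7.44, 7.43, 7.96, 8.53, 8.29, 8.81 and 9.49 in the second, and 10.18, 10.04, 10.18, 10.76, 11.43, 11.30, 11.44 and 11.85 in the third. From 0 to 4 h to 6 to 8 h they differed by 0.82, 0.84 and 1.03 on the log2 scale, against 0.27 in the used set.

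PSME4 showed a gap between its probe sets. The used set, with the highest signal, lay between 10.04 and 10.72 with DMSO as deposited. Another read 5.14, 5.88, 4.53, 6.98, 8.85, 8.58, 8.72 and 9.01, and the third 5.69, 5.90, 6.29, 6.63, 7.07, 7.02, 7.20 and 7.74. From 0 to 4 h to 6 to 8 h the used set thus differed by 0.11 and the others by 2.95 and 0.95. With the mean of a gene's kept probe sets, 2 of 42 members were higher at 6 to 8 h than at 0 to 4 h, where 8.17% of all genes were called. They were PSME3 (0.74 ± 0.17, adjusted p = 0.0356) and PSME4 (1.34 ± 0.23, adjusted p = 0.0212). On that measure 6 members passed over the course, where 25.1% of all genes did, namely PSMB3, PSMB4, PSMD11, PSME3, PSME4 and PSMF1. The order of the probe sets of PSME4 on the transcript was not analysed here.

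**Figure D3:**
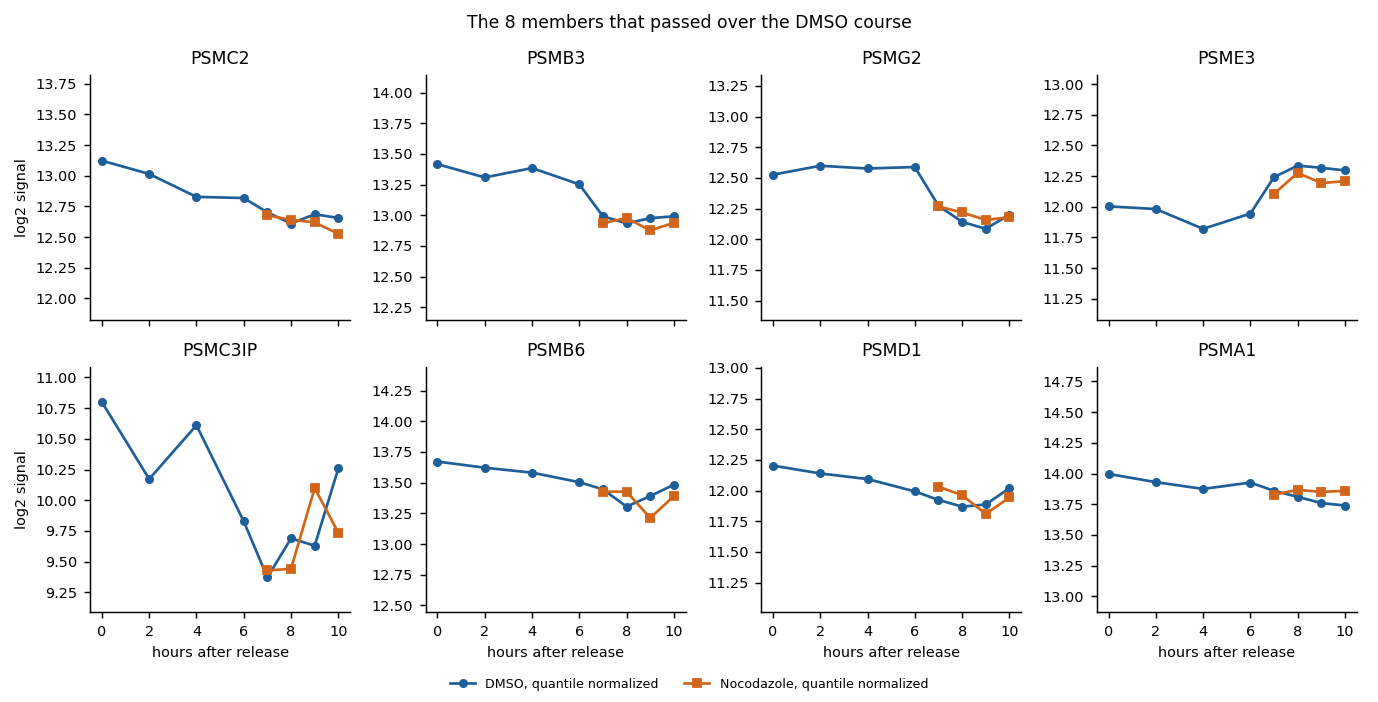
Log2 signal after quantile normalization against hours after release for the 8 members that passed over the DMSO course, with DMSO in blue and nocodazole in orange. Each axis spans 2 log2 units. With DMSO, PSMC2 falls gradually from 0 to 8 h, PSMB3 and PSMG2 lie lower from 7 h on than before, and PSME3 lies higher.

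By windows, 0 of 42 members passed from 0 to 4 h to 6 to 8 h as deposited, with 5 at an unadjusted p under 0.05 in limma, where 6.05% of all genes passed. After normalization 1 passed, where 9.68% did, and it was PSMC3IP, which is no proteasome gene. PSMC3IP, a partner of the recombinases, read 10.80, 10.17, 10.61, 9.83, 9.37, 9.69, 9.63 and 10.26 with DMSO and 9.43, 9.44, 10.10 and 9.73 with nocodazole after normalization. Its difference was -0.90 ± 0.22 (SE, adjusted p = 0.0384), and -0.73 ± 0.24 (adjusted p = 0.11) as deposited. The next lowest was PSMB3, with -0.31 ± 0.08 (adjusted p = 0.0529). At the other end stood PSME3IP1 with 0.36 ± 0.13 and PSMB10 with 0.29 ± 0.18 as deposited, which did not pass. The 6 alpha and 7 beta ring members all had differences below 0, from -0.32 to -0.02 as deposited, and none passed. Of all 9130 genes, 3884 lay below 0 as deposited and 5690 after normalization. The ring members share arrays, so their signs are no separate observations. The median member difference was -0.09, against 0.06 over all genes, and -0.08 against -0.10 after normalization.

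In the last DMSO window, 9 and 10 h against 6 to 8 h, 0 members passed in limma as deposited, with 0 at an unadjusted p under 0.05, and 0 passed after normalization, with 3 at an unadjusted p under 0.05. The share of all genes called was 0% on both scales. The median member difference was 0.07 as deposited, 0.22 without the 9 h array and -0.08 without the 10 h array. As deposited, PSMC3IP (0.40 ± 0.27) and PSMB10 (0.32 ± 0.20) were highest and PSMA3-AS1 (-0.26 ± 0.22) and PSMG2 (-0.15 ± 0.18) lowest. After normalization PSMA7, an alpha subunit, was among the highest with 0.25 ± 0.11. PSMA7 read 13.09, 12.98, 13.27, 12.89, 13.18, 13.04, 13.22 and 13.35 with DMSO and 12.998, 13.18, 13.04 and 13.08 with nocodazole, and the DMSO array at 10 h was its highest. PSMA3-AS1 read 7.84, 8.01, 7.97, 7.98, 8.63, 8.05, 7.93 and 7.99 with DMSO and 7.997, 8.27, 7.78 and 7.90 with nocodazole as deposited, and the DMSO array at 7 h stood above the others.

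The second comparison asked how nocodazole changed these genes at matched times. Over 7 to 10 h together, 0 of 42 members passed in limma as deposited, with 2 at an unadjusted p under 0.05, and 0 passed after normalization, with 3 at an unadjusted p under 0.05. The shares of all genes called were 0% and 0.394%. The lowest members were PSMF1 (-0.48 ± 0.18) and PSME4 (-0.47 ± 0.26) as deposited and PSMF1 (-0.31 ± 0.09) and PSMC6 (-0.28 ± 0.07) after normalization. The highest as deposited were PSMA1 (0.004 ± 0.069) and PSMB2 (-0.02 ± 0.11). PSMB2, a noncatalytic beta subunit, read 13.15, 13.12, 13.12, 13.13, 13.01, 12.92, 12.76 and 13.22 with DMSO and 13.17, 12.98, 12.87 and 12.83 with nocodazole as deposited, so the treatments overlapped.

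At 7 and 8 h, 0 of 42 members passed in limma on either scale, with 0 as deposited and 2 after normalization at an unadjusted p under 0.05. The shares of all genes called were 0.0219% and 0.186%. The median member difference was -0.03 as deposited and -0.01 after normalization. Largest were PSMG3, a core chaperone, with 0.15 ± 0.19, and PSMD12, a lid subunit, with 0.12 ± 0.14, and lowest were PSMA3-AS1 with -0.21 ± 0.27 and PSMC6 with -0.19 ± 0.16. PSMD12 read 13.19, 13.37, 13.37, 13.34, 13.11, 13.08, 13.07 and 13.42 with DMSO and 13.31, 13.11, 13.02 and 13.05 with nocodazole as deposited, higher with nocodazole at 7 and 8 h and lower at 9 and 10 h.

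At 9 and 10 h many members were lower with nocodazole. As deposited, 18 of 42 (42.9%) were called lower than with DMSO and 0 higher, where 45.3% of all genes were called and 40.8% were called lower. This is a difference at the same hours and not a decline over time. Over genes of all signals, this share was near the background. After normalization 13 of 42 (31.0%) were called lower and 0 higher, where 35.1% of all genes were called and 17.7% were called lower. The median member difference was -0.37 as deposited, against -0.44 over all genes, and -0.12 against -0.002 after normalization. The median of the members was thus near that of all genes as deposited and below it after normalization. Beside genes of like mean signal the shares differed. As deposited, 7 of 15 members between 12 and 13 were called lower, where 22.4% of all genes were. Between 11 and 12 it was 6 of 8 (39.9%), and between 10 and 11 it was 4 of 4 (55.8%). Under 10 it was 1 of 3 (42.3%), and at 13 or more 0 of 12 (4.31%). After normalization, in the same order, 6, 5, 1, 0 and 1 were called lower, against 17.8%, 18.7%, 16.0%, 18.5% and 11.4%. At 10 h alone, the median difference as deposited was -0.56 over members and -0.61 over all genes. At 9 h alone these were -0.17 and -0.25. The count of members rested on single hours, and the share of all genes called with an hour left out is not given here. As deposited it was 6 without the 10 h arrays, 40 without the 9 h arrays, 7 without the 7 h arrays and 6 without the 8 h arrays. After normalization it was 5 without the 10 h arrays and 10 to 11 without the others. PSMD8, PSME1 and PSMF1 were called in all of these.

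**Figure D4:**
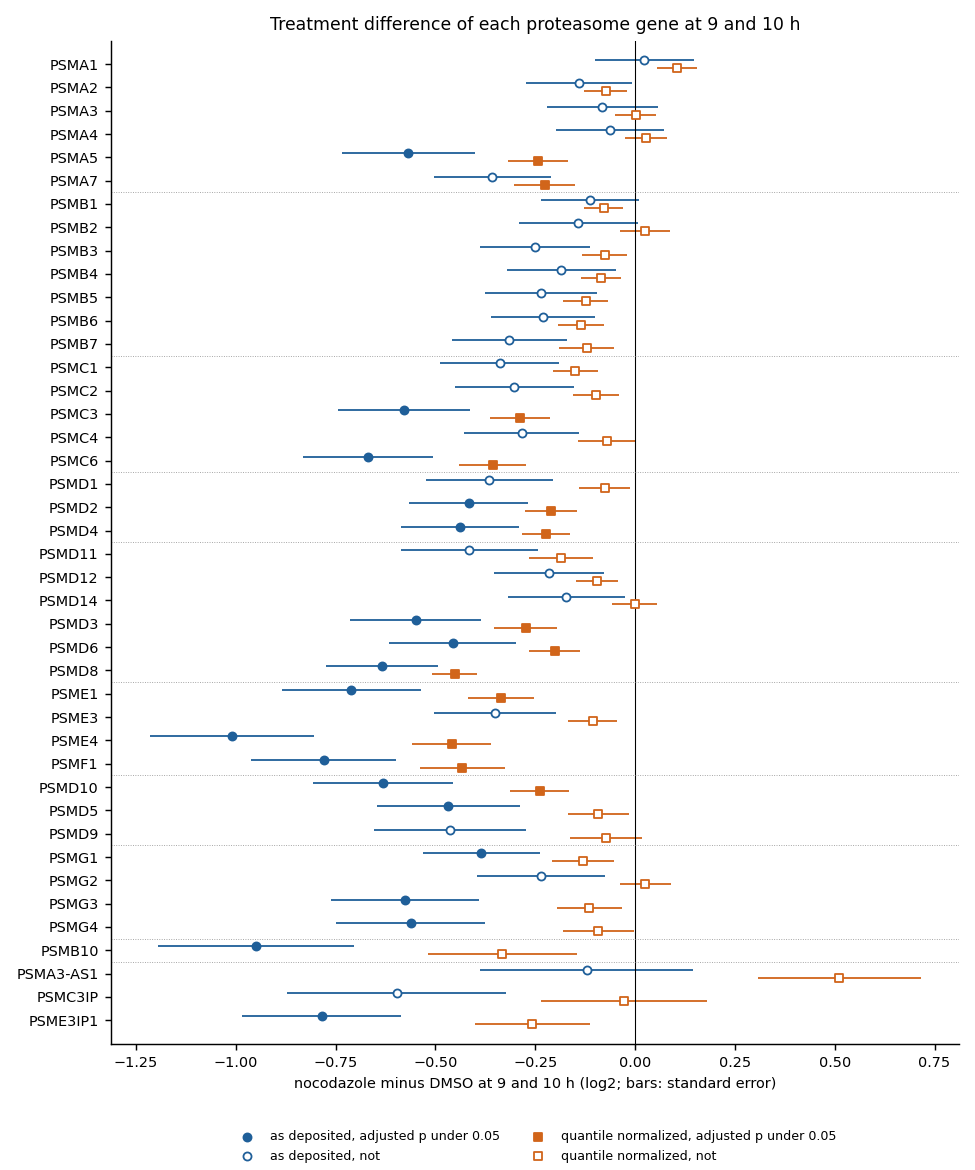
Nocodazole minus DMSO at 9 and 10 h on the log2 scale for each of the 42 members, with standard errors, as deposited (circles) and after quantile normalization (squares), grouped by role from the alpha ring at the top to genes outside the proteasome at the bottom. Filled points have an adjusted p under 0.05, and none of them lies above 0.

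The caps and the inhibitor had the lowest median of the roles with over 1 member. Of these 4 genes, 3 were called lower with nocodazole on both scales. The median difference of the 4 was -0.75 as deposited and -0.38 after normalization. PSME4, the PA200 activator of the core, read 10.12, 10.12, 10.04, 10.29, 10.26, 10.07, 10.27 and 10.72 with DMSO and 10.18, 10.27, 9.49 and 9.48 with nocodazole as deposited. Both late nocodazole arrays lay under all 8 DMSO arrays. The median of all genes did so too, at 8.88 and 8.76 against 9.12 to 9.56, and the share of genes that did was not counted. The difference of PSME4 was -1.01 ± 0.21 (limma, adjusted p = 0.00251), or -0.46 ± 0.10 (adjusted p = 0.00954) after normalization. Its other probe sets differed by -1.17 and -1.67. PSMF1, the inhibitor of the core, read 11.66, 11.65, 11.51, 11.75, 11.79, 11.61, 11.60 and 11.97 with DMSO and 11.37, 11.67, 11.02 and 10.99 with nocodazole as deposited. It was lower at 7 h too but not at 8 h, and at 9 and 10 h it differed by -0.78 ± 0.18 (adjusted p = 0.0052), or -0.43 ± 0.11 (adjusted p = 0.016) after normalization. PSME1, a PA28 subunit that interferon induces, read 11.44, 11.41, 11.47, 11.62, 11.56, 11.45, 11.58 and 11.71 with DMSO and 11.40, 11.58, 11.06 and 10.81 with nocodazole, a difference of -0.71 ± 0.17 (adjusted p = 0.00679) and of -0.34 ± 0.08 (adjusted p = 0.0158) after normalization. PSME3 differed by -0.35 and -0.11 and did not pass in the probe set used. Its other kept sets differed by -0.73, -1.24 and -0.86 as deposited. The mean of its kept sets passed in limma as deposited (-0.79 ± 0.19, adjusted p = 0.00304).

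Of 6 lid genes, PSMD3, PSMD6 and PSMD8 were called lower with nocodazole on both scales, and PSMD11, PSMD12 and PSMD14 did not pass. After normalization PSMD6 read 12.07 and 12.14 with nocodazole at 9 and 10 h, and 12.22 and 12.39 with DMSO. Its DMSO values to 8 h were 12.06 to 12.17, so its level with nocodazole did not decline below these. The other kept probe set of PSMD11 differed by -1.60 as deposited. The mean of its kept sets passed in limma as deposited (-1.01 ± 0.22, adjusted p = 0.00177). PSMD8, a lid subunit, had the smallest p of all members after normalization. It read 13.04, 12.86, 12.98, 12.97, 12.97, 12.92, 13.08 and 13.15 with DMSO and 12.93, 12.97, 12.63 and 12.70 with nocodazole after normalization. The treatments were close at 7 and 8 h and apart at 9 and 10 h, by -0.45 ± 0.06 (adjusted p = 0.00125), and by -0.63 ± 0.14 (adjusted p = 0.004) as deposited. PSMD14, the deubiquitinase of the same lid, differed by -0.001 ± 0.057 after normalization.

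In the base, the ATPases PSMC3 and PSMC6, the scaffold PSMD2 and the receptor PSMD4 were called lower with nocodazole on both scales. In the probe sets used, PSMC1, PSMC2, PSMC4 and PSMD1 passed on neither. The other kept sets of PSMC2 differed by -1.09 and -0.75 as deposited. The mean of its kept sets passed in limma as deposited (-0.71 ± 0.22, adjusted p = 0.0135). PSMC6 read 12.21, 12.17, 12.04, 12.13, 11.91, 11.998, 12.03 and 12.18 with DMSO and 11.59, 11.94, 11.51 and 11.37 with nocodazole as deposited, lower with nocodazole at each of the 4 hours. At 9 and 10 h it differed by -0.67 ± 0.16 (adjusted p = 0.0064) and by -0.36 ± 0.08 (adjusted p = 0.0133) after normalization. PSMC3 differed by -0.58 and -0.29, PSMD4 by -0.44 and -0.22, and PSMD2 by -0.42 and -0.21.

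**Figure D5:**
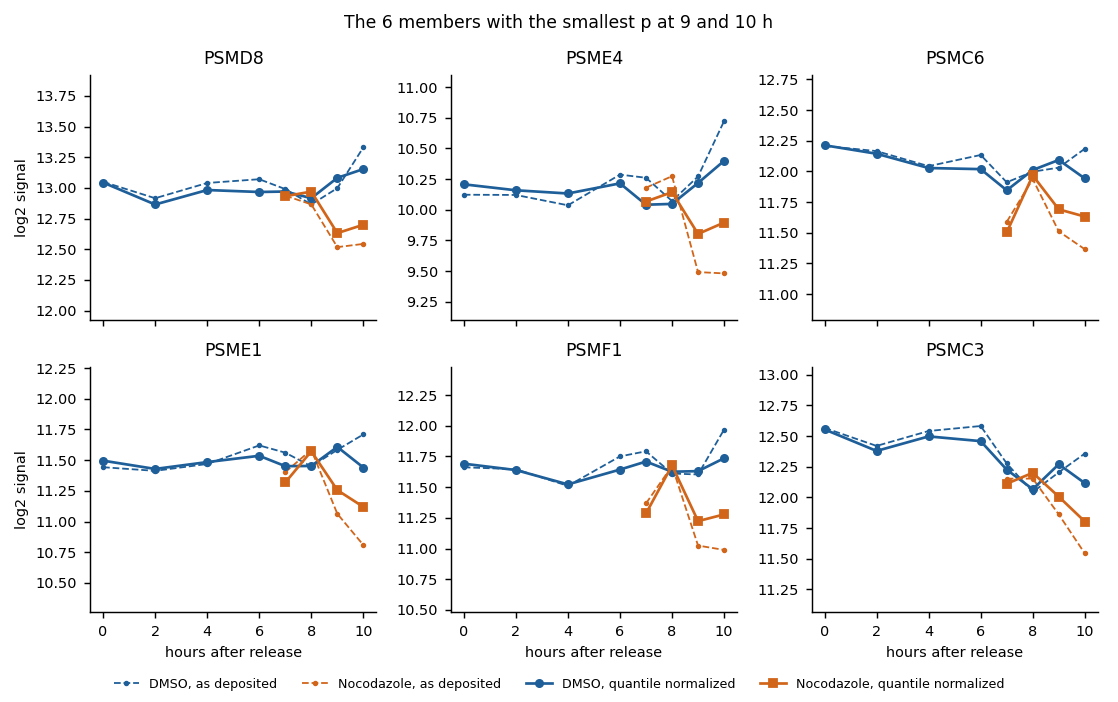
Log2 signal against hours after release for the 6 members with the smallest p at 9 and 10 h after quantile normalization, as deposited (dashed) and normalized (solid), with DMSO in blue and nocodazole in orange. In each of the 6 panels both late nocodazole points lie under the DMSO points of the same hour, and each axis spans 2 log2 units. The members were picked by this difference, and all members called there were lower, so the panels add no support.

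The alpha and beta rings of the core had the smallest median differences of the roles. Of 7 beta ring genes 0 passed in limma on either scale, with 1 at an unadjusted p under 0.05 on each, and their median difference was -0.23 as deposited and -0.09 after normalization. In the alpha ring these were -0.11 and -0.04. There PSMA5 was lower with nocodazole by 0.57 as deposited and by 0.24 after normalization. PSMA7 passed after normalization (-0.23 ± 0.08, adjusted p = 0.0499) but not as deposited (adjusted p = 0.0621). With the mean of kept probe sets as deposited, PSMA7 passed in limma (-0.52 ± 0.15, adjusted p = 0.0124), as did PSMA2 (-0.77 ± 0.19, adjusted p = 0.0046). PSMA1 read 14.05, 14.01, 13.98, 14.01, 13.84, 13.75, 13.66 and 13.91 with DMSO and 13.83, 13.73, 13.80 and 13.81 with nocodazole as deposited. Its nocodazole value was the higher one at 9 h and the lower one at 10 h. PSMA4, of the same ring, read 13.95, 13.84, 13.995, 13.90, 13.76, 13.55, 13.54 and 13.93 with DMSO and 13.83, 13.45, 13.68 and 13.68 with nocodazole. PSMA1 and PSMA4 had the highest differences of all members as deposited, 0.02 ± 0.12 and -0.06 ± 0.13, and did not pass. The other kept probe sets of PSMA1 had the opposite sign as deposited, at -0.09 and -0.21. After normalization PSMA3-AS1, which is no proteasome gene, was highest (0.51 ± 0.20, adjusted p = 0.0815) and did not pass either. Signal differs between the groups of genes, and at 9 and 10 h the median difference of all genes as deposited was -0.05 at a mean of 13 or more, -0.25 between 12 and 13, -0.39 between 11 and 12 and -0.54 between 10 and 11. The 12, 15, 8 and 4 members of these bands had medians of -0.16, -0.38, -0.60 and -0.68. After normalization the 4 bands held medians of all genes from -0.03 to 0.00 and of members of -0.08, -0.15, -0.24 and -0.19. In each of the 4 bands the members thus lay below the median of all genes, on both scales. The 3 members under 10 had medians of -0.60 and -0.03, against -0.53 and 0.02 over all such genes.

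Among the chaperones, PSMD10, a chaperone of the base known as gankyrin, was called lower with nocodazole on both scales, by 0.63 and 0.24. PSMD5 and the core chaperones PSMG1, PSMG3 and PSMG4 passed as deposited (adjusted p of 0.0475, 0.0479, 0.0239 and 0.0271) and not after normalization. PSMG3 read 10.46, 10.76, 11.09, 10.71, 10.94, 10.69, 10.88 and 11.29 with DMSO and 10.98, 10.95, 10.51 and 10.50 with nocodazole as deposited. PSMG2 read 12.54, 12.65, 12.62, 12.71, 12.32, 12.11, 12.03 and 12.44 with DMSO and 12.30, 12.17, 12.02 and 11.97 with nocodazole, and its difference of -0.24 did not pass. The immunoproteasome subunit PSMB10 read 7.64, 7.34, 7.83, 7.78, 8.05, 7.85, 8.07 and 8.35 with DMSO and 8.04, 8.07, 7.19 and 7.33 with nocodazole as deposited. At 9 and 10 h it was lower with nocodazole by 0.95 (limma, adjusted p = 0.00881). After normalization it differed by -0.33 ± 0.19 (adjusted p = 0.192). PSME3IP1, outside the proteasome, read 10.34, 10.43, 10.35, 10.53, 10.94, 10.73, 10.71 and 10.67 with DMSO and 10.63, 11.03, 9.90 and 9.91 with nocodazole, and passed as deposited (-0.78 ± 0.20, adjusted p = 0.008) but not after normalization. Without the level filter, the 8 symbols under it were all called higher at 9 and 10 h, by 0.05 to 0.39, as were 82.4% of such genes in all.

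Many members had more than 1 kept probe set. For 18 of them, 27 other kept sets were compared with the used one. At 9 and 10 h, 24 of 27 had the same sign as deposited and 22 after normalization, and from 0 to 4 h to 6 to 8 h 19 had the same sign on either scale. At 9 and 10 h, 7456 of 9130 genes and 41 of 42 members lay below 0 as deposited, and 4584 and 36 after normalization. Most signs as deposited were thus alike beforehand, and the share of same signs over all genes was not counted. A set with another sign at 9 and 10 h was a dim one of PSMG4, which read 4.91, 5.79, 5.77 and 4.52 with DMSO and 5.77, 4.43, 6.21 and 6.51 with nocodazole from 7 to 10 h as deposited. Across the 12 arrays the members varied together in part. The median Pearson's r over 861 pairs of members was 0.66 as deposited, where it was 0.27 over all pairs of genes, and 0.30 against 0.02 after normalization. The pairs share arrays and their common shifts, so this is a description. Within the beta ring the median was 0.46 after normalization, and among the 5 ATPases -0.11.

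The third comparison asked whether the effect of nocodazole changed between 7 and 8 h and 9 and 10 h. As deposited, 1 of 42 members passed, where 12.3% of all genes did, and after normalization 1 passed, where 7.88% did. They were different genes. For the counts below with an hour left out, the share of all genes called is not given. PSME4 changed by -1.07 ± 0.29 as deposited (adjusted p = 0.0332) and by -0.52 ± 0.14 after normalization (adjusted p = 0.057). PSMD8 changed by -0.61 ± 0.20 as deposited (adjusted p = 0.0588) and by -0.46 ± 0.08 after normalization (adjusted p = 0.0226). As deposited the count was 34 without the 9 h arrays and 0 without the 7, 8 or 10 h arrays in turn, and after normalization it was 0 without the 8 h arrays and 3 without the 9 h arrays. After PSME4, PSMB10 had the lowest change as deposited (-1.06 ± 0.35, adjusted p = 0.0597), and PSMA3-AS1 (0.08 ± 0.38) and PSMA1 (0.04 ± 0.18) had the highest. The median over members was -0.34, against -0.44 over all genes, and -0.15 against 0.01 after normalization.

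Other genes of the pathway were taken from a list of 31, of which 26 were kept. Over the DMSO course 5 of 26 (19.2%) passed as deposited, where 21.8% of all genes did, and 13 (50%) after normalization, where 40.1% did. As deposited they were UBE3C, a ubiquitin ligase of the proteasome, NFE2L2, a factor that drives proteasome genes, PITHD1, AKIRIN2, which imports proteasomes into the nucleus, and the shuttle factor UBQLN4. After normalization the smallest p were those of NFE2L2, FAF1, SEM1, AKIRIN2, UBE3C and PITHD1, with fitted ranges from 0.57 to 0.90. NFE2L2 read 12.45, 12.64, 12.54, 12.35, 12.11, 12.11, 11.98 and 11.91 with DMSO and 12.05, 12.14, 12.25 and 12.23 with nocodazole after normalization. It fell from 0 to 4 h to 6 to 8 h by 0.35 (adjusted p = 0.0421), as did SEM1, a small lid subunit whose symbol the rule on members does not take, by 0.46 (adjusted p = 0.025). UBE3C read 10.40, 10.41, 10.53, 10.58, 10.73, 10.86, 11.03 and 10.91 with DMSO, higher late than early, with an adjusted p of 0.00674 over the course. As deposited, no listed gene passed from 0 to 4 h to 6 to 8 h in limma, with 6 at an unadjusted p under 0.05, UBE3C (0.42 ± 0.12) and AKIRIN2 (0.63 ± 0.22) having the smallest p. No listed gene passed from there to 9 and 10 h in limma, with 1 and 2 at an unadjusted p under 0.05 as deposited and normalized. The smallest p were those of UBE3C (0.31 ± 0.13) and UBQLN4 (0.50 ± 0.22) as deposited and of NFE2L2 (-0.25 ± 0.10) and UBQLN4 (0.41 ± 0.17) after normalization.

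With nocodazole at 9 and 10 h, 8 of 26 listed genes (30.8%) were called lower than with DMSO as deposited, where 40.8% of all genes were. UBQLN2, a shuttle factor that carries ubiquitinated proteins to the proteasome, read 10.72, 10.56, 10.75 and 11.16 with DMSO and 10.54, 10.56, 9.54 and 9.75 with nocodazole from 7 to 10 h. It fell by 1.31 as deposited and by 0.79 after normalization (adjusted p = 0.000387 and 0.00111), and was the 1 listed gene whose difference changed between the hours on both scales (-1.21 and -0.68, adjusted p = 0.0163 and 0.0271). The 5 with the next smallest p were UBQLN4 (-0.91), PAAF1 (-1.05), PITHD1 (-0.70), NFE2L1 (-0.48) and UCHL5 (-0.49). After normalization 2 were called lower, UBQLN2 and the ubiquitin-activating enzyme UBA1 (-0.17), and 5 higher, where 17.7% of all genes were called lower and 17.4% higher. These were NFE2L2 (0.29), NPLOC4 (0.36), SEM1 (0.33), POMP (0.19) and the proteasome deubiquitinase USP14 (0.23), the last named to complete the count after its values were seen. As deposited those 5 differed by 0.04, -0.15, -0.09, 0.16 and -0.14 and did not pass. POMP, which matures the core, read 13.88, 13.87, 13.81 and 14.04 with DMSO and 13.95, 13.80, 14.04 and 14.13 with nocodazole as deposited. Of the listed genes 0 passed over 7 to 10 h together or at 7 and 8 h in limma, with 1 and 0 at an unadjusted p under 0.05 as deposited and 3 and 1 after normalization. Over all 4 hours UBQLN2 had the smallest p on both scales (-0.70 and -0.45), followed by PITHD1 (-0.41) as deposited and ECPAS (0.30) after normalization, and at 7 and 8 h AKIRIN2 (0.33) and ECPAS (0.25) led as deposited.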

How the data were processed

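Total RNA of 12 samples was hybridized to Affymetrix U133 Plus 2.0 arrays. The log2 values were computed by the authors with GC-RMA, whose version is not given in the sources used here. GC-RMA corrects background by base content and normalizes across arrays, and compresses low signals. Probe sets were named from GEO's platform annotation, where 41097 of 54675 had 1 symbol, 1801 several and 11777 none. A gene was kept if its brightest single-gene probe set reached a log2 value of 5 on at least 2 arrays. Tests used limma 3.58.1 in R 4.3.3, with moderated variances along an intensity trend and Benjamini-Hochberg adjustment over 9130 genes. The course was a natural spline with 3 degrees of freedom, whose size is the range of the fitted curve. DMSO windows were 0 to 4 h, 6 to 8 h and 9 to 10 h. Nocodazole was compared with DMSO with time as a block, and the change between hours was an interaction. Every fit was repeated after quantile normalization over all probe sets. Scripts were tested on simulated data. Alternatives were filters, the mean of probe sets, 2 spline degrees of freedom, no intensity trend, no time block and each hour left out. Array values are printed for up to 4 passing members per direction and comparison by smallest p and for the 2 highest and 2 lowest differences. Of pathway genes, up to 6 passing ones, or the 2 of smallest p, are named. Members and lists were chosen with earlier results of these data known. Array number limits precision.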

Additional observations from a re-analysis of the deposited data

Results flagged for a closer look

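The effect of nocodazole differed between hours in 2 members by the interaction test of limma. PSME4 changed by -1.0709 from 7 and 8 h to 9 and 10 h as deposited (adjusted p = 0.0332), and PSMD8 by -0.46 after quantile normalization (adjusted p = 0.0226). In 4 other members both early hours lay above DMSO and both late hours below it, as deposited. The change was -0.2615 in PSMB6 (adjusted p = 0.313), -0.4502 in PSMD1 (adjusted p = 0.165), -0.3316 in PSMD12 (adjusted p = 0.232) and -0.7262 in PSMG3 (adjusted p = 0.0775), and in none of these 4 did it pass the test.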

How the results depend on the processing

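Nocodazole and DMSO arrays were paired by hour through the time block, since no replicate numbers were given; without it 21 members passed at 9 and 10 h in place of 18. Over the DMSO course, 0 members passed as deposited, 8 after quantile normalization, 3 with the filter raised to 7, 6 with the mean of probe sets and 1 with a spline of 2 degrees of freedom. Leaving out each hour gave 0 (8 h) to 7 (10 h). After normalization, alternatives chosen after seeing the data gave 7, 11, 9 and 13 without the arrays of 0, 2, 4 or 6 h, and 5, 5, 3 and 6 without those of 7, 8, 9 or 10 h, and 5 without the intensity trend. From the early to the middle window 1 passed after normalization, 2 with the mean of probe sets and 0 to 2 (6 h) with an hour left out. The median member difference from the middle to the late window was 0.2217 without 9 h and -0.0846 without 10 h. At 9 and 10 h with nocodazole, 18 members passed, 9 without the intensity trend, and 6 (8 h or 10 h) to 40 (9 h) with an hour left out. After normalization this was 11, 11, 10 and 5 without 7, 8, 9 and 10 h. The median difference was -0.1182 after normalization and -0.5598 to -0.1720 without 9 h or 10 h. For the change between hours, 1 member passed, but 13 without a filter (7 higher, 6 lower, out of 50 symbols), 6 with the filter raised to 7, 5 with the mean of probe sets, 5 without the time block and 0 to 34 (9 h) with an hour left out. After normalization it was 0 without 8 h and 3 without 9 h. Leaving out 9 h or 10 h rests the late value on 1 pair, assumed to vary like the other hours. The counts under other settings, with an hour left out or not, have no share of all genes here and cannot be read against a background. Excepted are those after normalization with all hours, and with the mean of probe sets over the DMSO course and from its early to middle window. Their shares stand above. Of the 13 symbols called without a filter, PSMA8, PSMB8, PSMB8-AS1, PSMD6-AS2, PSMD7-DT, PSMD14-DT and PSMG3-AS1 lay under the level filter. PSMG1 at 9 and 10 h turned to 0.0089 after normalization without 9 h, and PSMG4 to 0.3252 with the mean of its probe sets. Of the values of single members under an alternative, 297 kept their side of the threshold, 98 no longer passed, 95 came to pass and 2 reversed. The cause was not tested.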
